A study of Mus musculus with 24 samples.

Results

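A set of 9 genes that mark resting, or homeostatic, microglia was followed through the first days after pilocarpine-induced status epilepticus (SE) in the hippocampal CA1 region of the mouse. They are P2ry12, P2ry13, Tmem119, Siglech, Selplg, Cx3cr1, Csf1r, Gpr34 and Aif1, 9 of the 18647 genes in the deposited table, taken by symbol. The rule uses no measured value, though it was written with earlier results of these data known. All 9 were found in the table, and all 9 were among the 18153 genes that passed the filter on low counts.

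CA1 was dissected from adult C57Bl/6N mice, at least 60 days old, and its mRNA was sequenced. SE was induced with 335 mg/kg pilocarpine after 1 mg/kg scopolamine methyl nitrate and followed by 4 mg/kg diazepam, and SE animals were sampled after 6, 12, 24, 36 or 72 h. Control animals (Ctr) received scopolamine, saline in place of pilocarpine, and diazepam, and were sampled at 12, 36 and 72 h, so that every group carries scopolamine and diazepam. Each of the 8 groups had 3 libraries, 15 after SE and 9 from controls. No control was sampled at 6 or 24 h, and these times were compared with the mean of the 3 control groups, so all comparisons with controls at 6 and 24 h draw on the same control libraries as those at 12, 36 and 72 h. The labels number the libraries of a group as replicates without naming animals, so p-values measure the spread between libraries. Only animals that developed SE were used, and the libraries hold whole CA1 tissue, not sorted microglia.

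Microglia are the resident macrophages of the brain. At rest they survey the tissue with fine processes, depend on signalling through the CSF1 receptor and carry a set of surface proteins that distinguishes them from other macrophages, among them the ADP receptor P2RY12, TMEM119 and the lectin SIGLEC-H. When they respond to injury, many of these homeostatic transcripts are known to fall while phagocytic and inflammatory transcripts rise. In a bulk library, fewer cells of a type and less RNA per cell cannot be told apart.

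In brief, all 9 genes fell within 6 h, and by 72 h 8 of them were higher than control, or 4 with the range of the sample numbers, described further on, in the fit. The depth and the time of the fall differed between genes. P2ry12 and Selplg fell deepest and were lowest at 12 h, Siglech was lowest at 24 and 36 h, and Csf1r and Cx3cr1 had the smallest falls at their lowest.

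The libraries held 2663936 to 30133731 counts, with a median of 13521590. Ctr 72 h replicate 3 was the shallowest library, with 2663936 counts, and Ctr 72 h replicate 2 held 5793721. Levels are CPM, counts brought to an equal library total, scaled with TMM, a method that corrects that total for differences in composition. Genes were called differentially expressed (DEGs) when the adjusted p did not exceed 0.05 and the log2 fold change (log2FC), up or down, reached 0.66 against controls or 1 between SE times. The pan-myeloid list, 18 genes shared by microglia and other myeloid cells such as C1qa, Tyrobp and Ptprc, and the CA1 pyramidal markers Wfs1 (mean 209 CPM over the 24 libraries) and Fibcd1 (176 CPM) had counts in every library. The CA1 markers varied between libraries and groups, with Wfs1 at 67.8 to 537 CPM within Ctr 12 h and Fibcd1 at 516 ± 47.4 CPM (SD, n = 3) in Ctr 36 h and 53.1 ± 20 CPM in SE 36 h.

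Several libraries also held transcripts of sensory ganglia. The summed level of 10 sensory ganglion genes, Prph among them, was 1729 CPM in Ctr 72 h replicate 2, 910 CPM in SE 72 h replicate 1, 810 CPM in SE 36 h replicate 3, 661 CPM in SE 12 h replicate 1, 466 CPM in SE 72 h replicate 2 and 322 CPM in SE 6 h replicate 3. It was 68.2 CPM or less in the other 18 libraries. Counts without these 6 libraries are given where they differ.

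In the 9 control libraries, the levels per kilobase of exon ran from Csf1r, the receptor for the growth factors CSF1 and IL-34, at 16.6 ± 1.55 CPM per kb (SD, n = 9) to Aif1 at 1.17 ± 0.324 CPM per kb. P2ry12 followed Csf1r with 13.8 ± 2.6 CPM per kb and Cx3cr1 came next with 12.3 ± 2.43. Below them lay Selplg with 8.73 ± 1.29, Tmem119 with 7.64 ± 1.79, Gpr34 with 4.25 ± 1.16, P2ry13 with 3.83 ± 1.11 and Siglech with 3.68 ± 0.565 CPM per kb. Neighbours in this order were separated in all 9 libraries for 3 pairs, namely Cx3cr1 above Selplg, Tmem119 above Gpr34 and Siglech above Aif1. The means of P2ry12 and Cx3cr1, of Selplg and Tmem119, and of Gpr34, P2ry13 and Siglech lay within the SDs of their neighbours, and P2ry13 exceeded Siglech in only 6 of 9 libraries. Exon length was that of all annotated exons merged, so an order between close neighbours also depends on which isoforms are used. That length includes bases shared with exons of other genes, 1461 of 7361 in Csf1r and 703 of 4236 in Aif1. Reads there cannot be assigned to 1 gene where strand was ignored, and the levels were not corrected for this. At 12 h after SE, Csf1r (11 ± 1.68 CPM per kb, n = 3) and Cx3cr1 (10.9 ± 0.288) stood above the other 7 genes, which lay between 0.509 and 1.96 CPM per kb. P2ry12, second in controls, was sixth at 1.05 ± 0.139 CPM per kb. At 72 h Csf1r was again first with 57.5 ± 11.3 CPM per kb and Siglech was last with 4.74 ± 2.22.

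P2ry12 is the receptor through which microglia sense ADP and ATP breakdown products and extend their processes. The gene lies on the minus strand at chr3:59123682-59170429 (GRCm39) within Med12l, and 294 of its exon bases also lie in exons of Med12l, whose reads cannot be separated where strand was ignored. The controls held 30.4 CPM at the lowest, 44.6 at the median and 58.0 at the highest. SE libraries at 6 h held 4.16, 2.84 and 4.16 CPM, and those at 12 h held 3.23, 3.88 and 3.03 CPM. None of these 6 libraries came near the lowest control. At 24 h the level was 7.54, 6.14 and 6.10 CPM and at 36 h it was 12.3, 8.99 and 13.4 CPM, still below each control. At 72 h it was 39.9, 80.7 and 67.9 CPM against 49.3, 35.1 and 30.4 CPM in Ctr 72 h, so the groups overlapped. Relative to control, the mean level was 8.41% at 6 h and 7.66% at 12 h, then 14.9% and 23% at 24 and 36 h, and 164% at 72 h. P2ry12 fell by 3.55 on the log2 scale at 6 h (s.e. 0.24, adjusted p = 1.25e-09), by 3.69 at 12 h (s.e. 0.25, adjusted p = 7.58e-09), by 2.75 at 24 h (s.e. 0.22, adjusted p = 6.23e-09) and by 2.12 at 36 h (s.e. 0.23, adjusted p = 9.45e-07). It rose by 0.69 at 72 h (s.e. 0.22, adjusted p = 0.0261), a call that was lost in 9 of 36 other settings, with adjusted p up to 0.195.

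P2ry13, a second ADP receptor, lies next to P2ry12 at chr3:59114539-59118304 on the same strand and also within Med12l. Its control level was 4.77 CPM at the lowest, 13.2 at the median and 16.4 at the highest, and the lowest value was that of Ctr 72 h replicate 2. After SE it was 3.04, 2.84 and 4.16 CPM at 6 h and 2.58, 2.19 and 2.63 CPM at 12 h. All 6 libraries lay below every control. By 24 h it held 8.81, 5.05 and 6.38 CPM, by 36 h 15.4, 10.2 and 11.9 CPM, within the range of Ctr 36 h, and by 72 h 21.5, 37.8 and 38.0 CPM, above all controls. The log2FC was -1.83 (s.e. 0.23) at 6 h, -2.47 (s.e. 0.26) at 12 h and -0.87 (s.e. 0.21) at 24 h, all DEGs. At 36 h the log2FC was -0.00 (s.e. 0.24, adjusted p = 0.994), and at 72 h P2ry13 rose by 1.59 (s.e. 0.25, adjusted p = 8.87e-05). P2ry13 was thus at 99.7% of control at 36 h, when its neighbour P2ry12 was at 23%.

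Gpr34, a receptor for lysophosphatidylserine, lies at chrX:13489625-13507116 on the plus strand, opposite Cask. Controls held 5.46 CPM at the lowest, 14.7 at the median and 16.3 at the highest, and again the lowest was Ctr 72 h replicate 2. SE libraries held 3.28, 3.43 and 3.23 CPM at 6 h and 5.07, 4.54 and 3.66 CPM at 12 h, all below every control. The level was 16.5, 8.01 and 8.69 CPM at 24 h, which overlapped the controls, and 27.4, 18.2 and 22.4 CPM at 36 h, which did not reach down to it. At 72 h the libraries held 29.3, 47.9 and 67.2 CPM. Gpr34 fell by 1.94 at 6 h (s.e. 0.26, adjusted p = 9.15e-06) and by 1.73 at 12 h (s.e. 0.28, adjusted p = 7.47e-05). The log2FC at 36 h was 0.66 (s.e. 0.26, adjusted p = 0.0622), not a DEG, and at 72 h Gpr34 rose by 2.30 (s.e. 0.29, adjusted p = 5.27e-06).

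**Figure D1:**
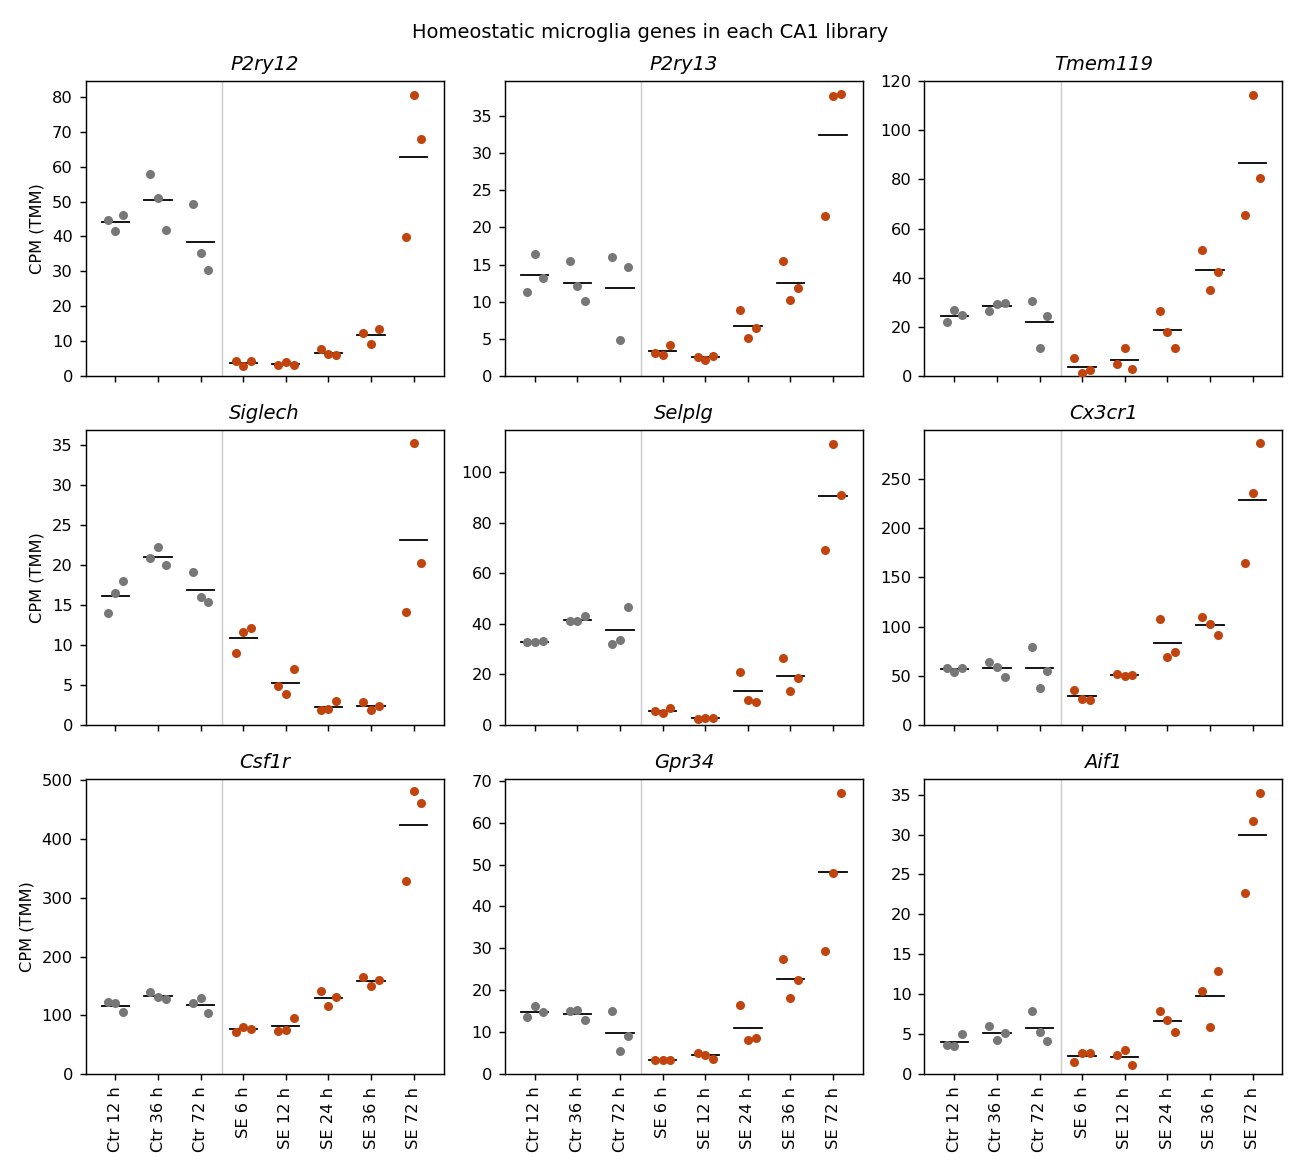
Level of each of the 9 genes (CPM after TMM scaling, y axes from 0 and different for each gene) in each of the 24 libraries, with controls in grey and SE in orange, and a bar at the mean of the 3 libraries of a group. At 6 h all 9 genes lie below every control library, P2ry12 is still at 23% of control at 36 h, and at 72 h 7 genes lie above all 3 Ctr 72 h libraries.

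Selplg, which encodes PSGL-1, the ligand that binds P- and E-selectin, lies at chr5:113956597-113970705 on the minus strand, and 541 of its exon bases are shared with an unstudied gene on the other strand. In controls it held 32.2 CPM at the lowest, 33.8 at the median and 46.5 at the highest. In SE libraries it was 5.35, 4.70 and 6.71 CPM at 6 h and 2.39, 2.78 and 2.63 CPM at 12 h. The 3 libraries at 12 h were also below the 3 at 6 h. It then reached 20.9, 10.0 and 8.90 CPM at 24 h, 26.6, 13.5 and 18.5 CPM at 36 h and 69.3, 111 and 91 CPM at 72 h. The first 2 of these times lay below all controls and the last above all controls. Selplg fell by 2.71 at 6 h (s.e. 0.26, adjusted p = 1.44e-07), by 3.65 at 12 h (s.e. 0.30, adjusted p = 5.12e-08), by 1.5 at 24 h (s.e. 0.24) and by 1.09 at 36 h (s.e. 0.26, adjusted p = 0.00307), and it rose by 1.29 at 72 h (s.e. 0.27, adjusted p = 0.00115). At its lowest, at 12 h, 7.91% of the control level was measured. The genes for the selectins that bind this ligand moved the other way. E-selectin, Sele, held 23 to 101 counts in the SE 12 h libraries (2.75 ± 1.4 CPM) and P-selectin, Selp, 13 to 43 counts (1.35 ± 0.676 CPM), where both had 0 counts in each Ctr 12 h library, so no fold is given. Both were higher DEGs at 12, 24 and 36 h, at 101 counts or fewer per library, but Selp was not called at 36 h without Ctr 36 h replicate 2 or 3 or SE 36 h replicate 1.

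Siglech encodes a sialic acid-binding lectin of microglia and plasmacytoid dendritic cells, and lies at chr7:55417926-55429195 on the plus strand. Its control level was 14 CPM at the lowest, 17.9 at the median and 22.3 at the highest. It was lowest later than the other 8 genes, whose lowest mean was at 6 or 12 h. Siglech held 8.95, 11.6 and 12.1 CPM at 6 h and 4.87, 3.88 and 7.01 CPM at 12 h, and was lowest with 1.81, 2.00 and 3.01 CPM at 24 h and 2.82, 1.89 and 2.34 CPM at 36 h. These 6 late libraries held only 17 to 46 counts of Siglech each, so their values carry a wide counting error. At 72 h the level was 14.1, 35.2 and 20.3 CPM, which overlapped Ctr 72 h (19.2, 16 and 15.4 CPM). Siglech fell by 0.72 at 6 h (s.e. 0.23, adjusted p = 0.0166), a call lost without SE 6 h replicate 1. It fell by 1.64 at 12 h (s.e. 0.28, adjusted p = 0.00013), by 2.97 at 24 h (s.e. 0.28, adjusted p = 5.18e-08) and by 3.16 at 36 h (s.e. 0.30, adjusted p = 1.74e-07). At 72 h the log2FC was 0.44 (s.e. 0.27, adjusted p = 0.249), and Siglech was the 1 gene of the 9 that was not a DEG then. At 36 h it was at 11.1% of control while Csf1r was at 120%.

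Tmem119 encodes a membrane protein that is used as a microglial marker, and lies at chr5:113931781-113938577 on the minus strand, near Selplg. Controls held 11.3 CPM at the lowest, in Ctr 72 h replicate 2, 26.5 at the median and 30.6 at the highest. SE libraries held 7.27, 1.18 and 2.51 CPM at 6 h and 4.97, 11.5 and 2.79 CPM at 12 h. These replicates spread widely but all lay below Ctr 12 h, and SE 6 h replicate 2 held 12 counts. At 24 h the level was 26.3, 17.9 and 11.1 CPM, at 36 h 51.4, 35.2 and 42.4 CPM and at 72 h 65.4, 114 and 80.7 CPM. Tmem119 fell by 2.74 at 6 h (s.e. 0.43, adjusted p = 5.82e-05) and by 1.90 at 12 h (s.e. 0.44, adjusted p = 0.00204). The log2FC was -0.41 at 24 h (adjusted p = 0.383) and 0.60 at 36 h (adjusted p = 0.297), although each library at 36 h was above each Ctr 36 h library. At 72 h Tmem119 rose by 2.05 (s.e. 0.44, adjusted p = 0.00168).

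Cx3cr1 is the receptor for the neuronal chemokine fractalkine, and lies at chr9:119877749-119898945 on the minus strand. Controls held 37.9 CPM at the lowest, 58.2 at the median and 79.7 at the highest. SE libraries held 35.2, 26.3 and 25.3 CPM at 6 h, below every control, and 52.1, 49.5 and 51.2 CPM at 12 h, close below the 53.6 to 58.3 CPM of Ctr 12 h. The level was 108, 69.2 and 74.3 CPM at 24 h, 109, 103 and 91.7 CPM at 36 h and 165, 236 and 287 CPM at 72 h. Cx3cr1 thus fell at 6 h by 0.98 (s.e. 0.16, adjusted p = 7.86e-05), was not a DEG at 12 h (log2FC -0.15, s.e. 0.18, adjusted p = 0.532) or 24 h (0.56, adjusted p = 0.00414, below the fold required), and rose by 0.81 at 36 h (s.e. 0.18, adjusted p = 0.00178) and by 2.01 at 72 h (s.e. 0.19, adjusted p = 1.64e-07).

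Csf1r, on whose signal microglia depend for survival, lies at chr18:61229714-61266535 on the plus strand, and 1461 of its exon bases are shared with Hmgxb3 on the other strand. Its log2FC stayed between -0.68 and 0.26 up to 36 h. Controls held 104 CPM at the lowest, 123 at the median and 139 at the highest, SE libraries at 6 h 71.9, 80.6 and 76.6 CPM and those at 12 h 73.1, 74.5 and 95.1 CPM. The level was 141, 115 and 131 CPM at 24 h, within the control range or just above it, and 166, 149 and 161 CPM at 36 h. At 72 h it was 328, 481 and 461 CPM, far above each control. Csf1r fell by 0.68 at 6 h (s.e. 0.11, adjusted p = 0.000118), a call close to the fold required, which was lost in 6 of 36 other settings. The log2FC was -0.52 at 12 h (s.e. 0.13, adjusted p = 0.00442), 0.08 at 24 h (adjusted p = 0.611) and 0.26 at 36 h (adjusted p = 0.152), and Csf1r rose by 1.84 at 72 h (s.e. 0.14, adjusted p = 9.68e-09).

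Aif1 encodes IBA1, the actin-bundling protein by which microglia are usually stained, and lies at chr17:35387384-35395053 on the minus strand, with 703 exon bases shared with Gm17705. It had the lowest level of the 9 genes in controls, 3.46 CPM at the lowest, 4.99 at the median and 7.85 at the highest. SE libraries held 1.52, 2.64 and 2.63 CPM at 6 h, 2.34, 3.02 and 1.12 CPM at 12 h, 7.86, 6.71 and 5.25 CPM at 24 h and 10.4, 5.91 and 12.9 CPM at 36 h. The SE libraries lay below Ctr 12 h at 12 h and overlapped Ctr 36 h at 36 h. At 72 h they held 22.7, 31.8 and 35.2 CPM, which was 520% of Ctr 72 h and the largest relative level among the 9 genes. Aif1 fell by 1.13 at 6 h (s.e. 0.30, adjusted p = 0.00586), had a log2FC of -0.86 at 12 h that missed the threshold (s.e. 0.34, adjusted p = 0.0532), and rose by 0.93 at 36 h (s.e. 0.33, adjusted p = 0.0361) and by 2.31 at 72 h (s.e. 0.35, adjusted p = 4.56e-05). The call at 36 h was lost in 8 of 36 other settings, among them the fit without the 6 libraries with sensory ganglion transcripts (log2FC 0.66, adjusted p = 0.18).

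**Figure D2:**
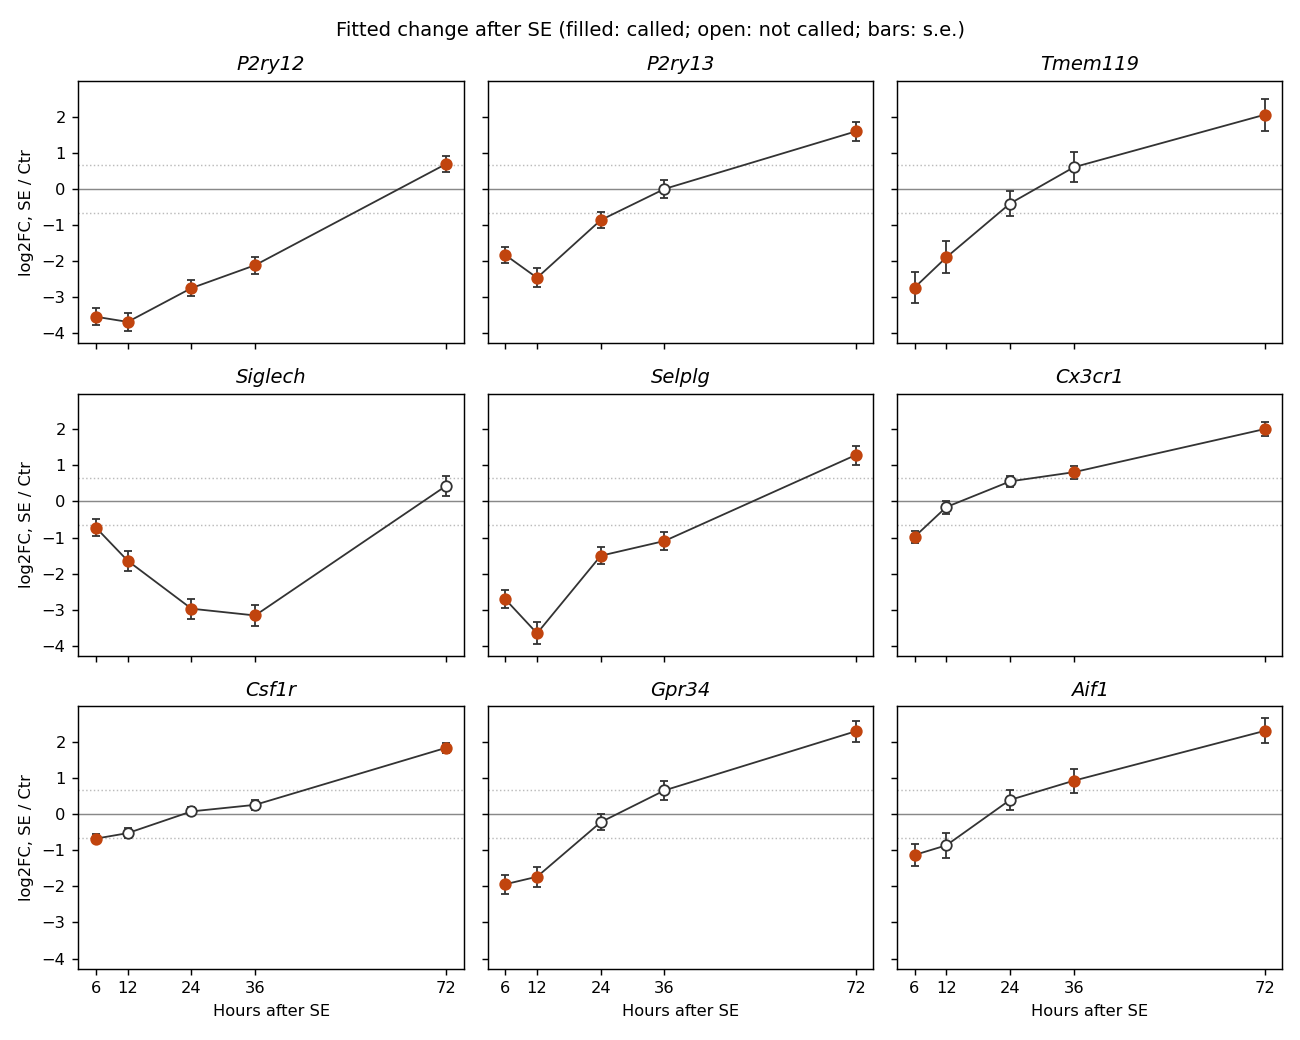
Fitted log2FC of SE against control (y axis, same scale for all genes) by hours after SE (x axis) for each of the 9 genes, with bars of 1 s.e., filled points for DEGs, open points for other values and dotted lines at an absolute log2FC of 0.66. P2ry12 and Selplg are deepest at 12 h (-3.69 and -3.65), Siglech at 36 h (-3.16), and 8 of 9 points at 72 h are filled and above 0.

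As a group, 9 of the 9 genes were DEGs with lower levels at 6 h, when 6.21% of all genes tested were lower DEGs, and 6 of 9 at 12 h, when 11.4% were. At 24 h 4 of 9 were lower, against 9.21% of all genes. At 36 h 3 were lower, against 8.91%, and 2 were higher, against 12.7%. At 72 h 0 were lower, against 4.21%, and 8 were higher, against 15.2%. The median log2FC of the 9 genes was -1.83, -1.73, -0.41, 0.26 and 1.84 at the 5 times, in order, and that of all genes tested lay between 0.00 and 0.10. Without SE 6 h replicate 1, Siglech and Csf1r were no longer called and 7 genes were lower at 6 h. Without the 6 libraries with sensory ganglion transcripts, 9, 6, 4, 3 and 0 genes were lower at the 5 times, 1 was higher at 36 h and 7 at 72 h. SE 72 h is then left with 1 library, which is assumed to vary like the other groups. Library by library, the 3 SE values lay below all 9 controls for 9 genes at 6 h, where this held for 9.27% of all genes. At 12 h they lay below the 3 Ctr 12 h values for 9 genes, against 23.2% of all genes, and at 24 h below all 9 controls for 3, against 10%. At 36 h they lay below the Ctr 36 h values for 3 genes, against 26.2%, and above them for 4, against 25.8%. At 72 h they lay above the Ctr 72 h values for 7 genes, against 19.4%.

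The numbers that identify the samples fall into 3 ranges, whose meaning the labels do not give. At 72 h, all SE libraries belong to the lower 2 ranges and all controls to the highest, so at that time the range and SE cannot be told apart by direct comparison. The same holds at 24 h, when all 3 SE libraries belong to the lowest range, which holds no control. With the range in place of the factor of unwanted variation in the fit across all libraries, 3 genes in place of 4 were lower at 24 h and 4 in place of 8 were higher at 72 h. The calls lost at 72 h were those of P2ry12 (log2FC 0.73, adjusted p = 0.195), P2ry13 (1.48, adjusted p = 0.0698), Tmem119 (1.71, adjusted p = 0.142) and Selplg (1.23, adjusted p = 0.0658). Calls were also lost among all genes tested. With the range in the fit, DEGs in either direction numbered 2627 at 24 h and 1595 at 72 h. In the fit reported, 1672 genes were lower and 2705 higher at 24 h, and 765 lower and 2765 higher at 72 h. The highest range holds 1 library of each 12 h group, with P2ry12 at 3.23 CPM in SE 12 h replicate 1 and 46.2 CPM in Ctr 12 h replicate 3. The middle range holds SE 36 h replicates 1 and 2, with P2ry12 at 12.3 and 8.99 CPM and Siglech at 2.82 and 1.89 CPM, and the 3 Ctr 36 h libraries, with 41.9 to 58.0 and 20.0 to 22.3 CPM.

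Between SE times, a DEG needed an absolute log2FC of 1. From 6 to 12 h, 2 of the 9 genes were DEGs, against 1.34% of all genes. Siglech fell by a further 1.07 (s.e. 0.28, adjusted p = 0.0326) and Selplg by 1.12 (s.e. 0.30, adjusted p = 0.0399), and neither was called without the 6 libraries with sensory ganglion transcripts. From 12 to 24 h, 6 of 9 were DEGs, against 3.18% of all genes. Of these, 5 rose, led by Selplg (log2FC 2.32, s.e. 0.30, adjusted p = 0.000173) and followed by Aif1 (1.56), Tmem119 (1.48), P2ry13 (1.44) and Gpr34 (1.28), while Siglech fell by 1.18 (s.e. 0.30, adjusted p = 0.02). Without SE 24 h replicate 1, which had the highest level at 24 h of every gene but Siglech, 3 genes were called, and a fit of the SE 12 h and SE 24 h libraries alone called 1. From 24 to 36 h, 0 of 9 were DEGs with edgeR, against 0.529% of all genes, with log2FC from 0.04 for Siglech to 1.23 for Tmem119. Unadjusted p was under 0.05 for 6 of them, and DESeq2 called 1 gene and limma-voom 2. From 36 to 72 h, 8 of 9 rose, against 4.13% of all genes in either direction, with log2FC from 1.06 for Gpr34 to 3.29 for Siglech, and Tmem119 had a log2FC of 1.01 (adjusted p = 0.131). From 12 to 72 h, all 9 rose, against 15.2% of all genes in either direction, by 2.15 for Siglech to 5.11 for Selplg. The effects of SE at 36 and 12 h were different for all 9 genes, against 3.38% of all genes. Without the factor of unwanted variation in the fit, 5 differed, and fewer than 9 also differed without Ctr 12 h replicate 2. In the fit reported, the effect was higher at 36 h for 8 of the 9 genes and lower for Siglech (difference of log2FC -1.51, s.e. 0.4, adjusted p = 0.0391). The effects at 72 and 12 h differed for all 9, against 18.6% of all genes, and those at 72 and 36 h for 7, against 4.81%, with Tmem119 and Aif1 not called. For 72 and 36 h, 4 genes differed without the factor of unwanted variation and 4 with the range of the sample numbers in its place. Fewer than 7 also differed without Ctr 72 h replicate 2.

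Since whole tissue was sequenced, the 9 genes were set beside other transcripts of myeloid cells. The summed level of the 9 genes was 323 ± 4.55 CPM in Ctr 12 h, 364 ± 24.1 in Ctr 36 h and 318 ± 48.1 in Ctr 72 h (SD, n = 3 each). After SE it was 138 ± 2.35 and 159 ± 9.61 CPM at 6 and 12 h, 278 ± 53.2 and 381 ± 38.1 CPM at 24 and 36 h, and 1027 ± 235 CPM at 72 h. The pan-myeloid sum was instead higher after SE, with control means from 279 to 362 CPM and SE means of 525 ± 96.4, 526 ± 148, 968 ± 205, 1049 ± 78.1 and 2448 ± 382 CPM, in order of time. The ratio of the 2 sums was therefore 1.16 ± 0.0331 in Ctr 12 h, 1.23 ± 0.038 in Ctr 36 h and 0.89 ± 0.2 in Ctr 72 h, where Ctr 72 h replicate 2 had the lowest control ratio, 0.685. In SE libraries the ratio was 0.27 ± 0.0586, 0.313 ± 0.063, 0.293 ± 0.0613, 0.364 ± 0.0309 and 0.417 ± 0.058, in order of time. The highest SE ratio, 0.48, lay below the lowest control ratio. At 72 h the sum of the 9 genes had thus passed its control level in CPM, but not relative to the pan-myeloid list. The early ratios also depend on genes of that list that rose strongly. Cd14 went from control means of 0.98 to 2.3 CPM to 104 ± 34.6 at 6 h and 146 ± 102 at 24 h, with 10.7 ± 1.83 at 72 h. Laptm5 held 33.9 to 42.4 CPM in the control means and 39.6 ± 8.33 at 6 h. A ratio without Cd14 was not computed.

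**Figure D3:**
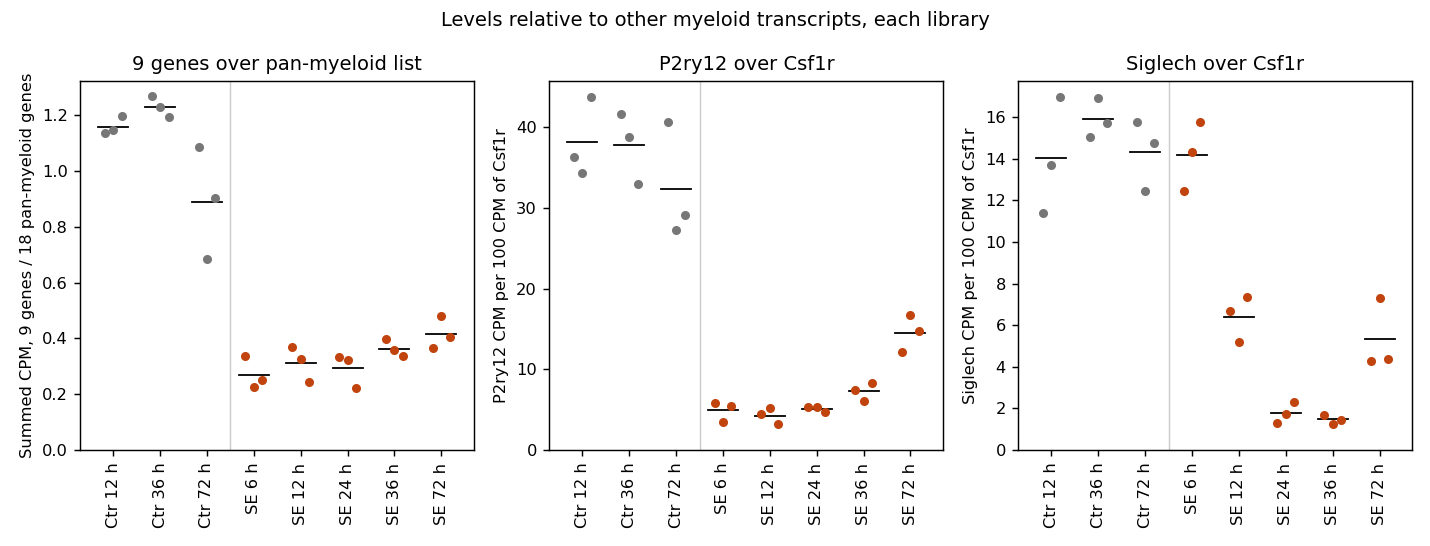
Ratio of summed CPM of the 9 genes to that of 18 pan-myeloid genes (left), P2ry12 per 100 CPM of Csf1r (middle) and Siglech per 100 CPM of Csf1r (right) in each library, with controls in grey, SE in orange and a bar at the mean of 3 libraries. In the left and middle panels each SE library lies below each control, at 72 h too, while Siglech at 6 h, at 12.4 to 15.8, lies within the control range of 11.4 to 17.

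Within the 9 genes, ratios to Csf1r separated the members further. P2ry12 amounted to 38.1 ± 4.91 CPM per 100 CPM of Csf1r in Ctr 12 h, 37.8 ± 4.41 in Ctr 36 h and 32.3 ± 7.21 in Ctr 72 h, and to 4.91 ± 1.21, 4.27 ± 1.02, 5.11 ± 0.387, 7.26 ± 1.16 and 14.5 ± 2.31 at the 5 times after SE, in order. Siglech stood at 14.2 ± 1.68 per 100 CPM of Csf1r at 6 h, within the control means of 14 to 15.9, and then at 6.41 ± 1.11, 1.78 ± 0.515, 1.47 ± 0.216 and 5.33 ± 1.71. Selplg was at 28.4 to 32.4 in the control means, lowest at 12 h with 3.25 ± 0.486, and at 21.3 ± 1.69 at 72 h. Cx3cr1 behaved differently, with 43.2 to 49.2 in the control means, 38.1 ± 9.31 at 6 h and 63.8 ± 8.99 at 12 h. P2ry12 and Siglech had therefore not regained their control ratio to Csf1r by 72 h, although their CPM overlapped or exceeded that of Ctr 72 h.

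Pearson correlations of log2 CPM over the 24 libraries were mostly lower for pairs with Siglech than for the other pairs. Libraries of a group share their treatment, so these values carry no test. Among the 28 pairs of genes without Siglech, r ran from 0.475 to 0.938 with a median of 0.824. Among the 8 pairs with Siglech it ran from -0.02 to 0.682 with a median of 0.215. The 5 genes most like P2ry12 among genes averaging 1 or more on the log2 CPM scale were Selplg (r = 0.938), Myorg (0.938), Commd8 (0.936), Acad8 (0.934) and Orai3 (0.929). Those most like Aif1 were Erp29 (0.942), Csf1r (0.922), Psme1 (0.918), Fuca2 (0.911) and 2810459M11Rik (0.91). Without Ctr 72 h replicate 2, Cmya5 took the place of Orai3, and Rnase4 and Slco2b1 those of Fuca2 and 2810459M11Rik.

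The promoters of P2ry12 and Selplg, which fell together, of P2ry13, which recovered before its neighbour P2ry12, and of Siglech, the gene with the late minimum, are shown from 250 bases before to 50 bases after the start of the canonical transcript (GRCm39, GENCODE M39), which for Selplg lies inside the gene as its position is given above. Capitals mark GAGGAA or, on the other strand, its complement, the core of the sites bound by PU.1, the factor that directs macrophage and microglia identity. P2ry12 lies at chr3:59170380-59170679, Selplg at chr5:113968518-113968817, P2ry13 at chr3:59118255-59118554 (all minus strand, printed 5′ to 3′ of the gene) and Siglech at chr7:55417682-55417981 (plus strand).
P2ry12: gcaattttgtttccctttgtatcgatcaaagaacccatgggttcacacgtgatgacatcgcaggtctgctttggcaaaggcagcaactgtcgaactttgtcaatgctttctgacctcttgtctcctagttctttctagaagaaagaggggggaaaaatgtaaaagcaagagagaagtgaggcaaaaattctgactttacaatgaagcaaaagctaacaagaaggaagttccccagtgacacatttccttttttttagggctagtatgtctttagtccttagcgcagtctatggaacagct
Selplg: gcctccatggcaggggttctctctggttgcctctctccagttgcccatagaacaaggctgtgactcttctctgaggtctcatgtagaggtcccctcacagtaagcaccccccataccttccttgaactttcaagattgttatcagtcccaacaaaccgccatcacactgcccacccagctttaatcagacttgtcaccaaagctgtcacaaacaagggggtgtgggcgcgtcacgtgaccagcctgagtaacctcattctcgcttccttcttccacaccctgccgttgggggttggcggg
P2ry13: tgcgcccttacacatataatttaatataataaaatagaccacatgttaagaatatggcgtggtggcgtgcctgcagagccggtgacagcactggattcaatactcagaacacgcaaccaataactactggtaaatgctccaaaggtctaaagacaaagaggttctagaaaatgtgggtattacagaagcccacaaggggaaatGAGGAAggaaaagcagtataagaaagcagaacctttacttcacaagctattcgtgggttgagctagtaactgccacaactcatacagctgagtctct
Siglech: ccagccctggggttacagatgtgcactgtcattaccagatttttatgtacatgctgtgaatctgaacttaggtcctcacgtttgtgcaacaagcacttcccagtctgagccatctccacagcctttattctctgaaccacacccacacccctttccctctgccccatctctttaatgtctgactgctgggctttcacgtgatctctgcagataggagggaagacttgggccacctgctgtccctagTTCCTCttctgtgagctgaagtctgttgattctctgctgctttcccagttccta

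GAGGAA was present on either strand in 2 of the 8 member promoters searched, P2ry13 and Siglech (that of Csf1r was not analysed here), and in 27.5% of the 21770 promoters of the annotation. The longer form GAGGAAGT was in 0 of 8 and in 3.07% of all. RUNX letters (TGTGGT) were in 3, P2ry13, Siglech and Cx3cr1, against 15.3%, and SMAD letters (CAGACA) in 2, Tmem119 and Siglech, against 18.9%. The MEF2 pattern was in 1, Cx3cr1, against 3.81%, the AP-1 pattern TGANTCA in 1, Tmem119, against 7.14%, and the IRF pattern in 0, against 3.84%. Both strands were searched, GAGGAA is part of GAGGAAGT, and a match describes letters and no binding. P2ry12, Selplg, Gpr34 and Aif1 held none of these patterns in the window.

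Other genes of the homeostatic set were split. Of 24 further homeostatic microglia genes tested, 10, 10, 6, 5 and 1 were lower and 2, 3, 6, 10 and 18 higher at the 5 times, in order. Among all genes tested, 6.21%, 11.4%, 9.21%, 8.91% and 4.21% were lower and 15.8%, 13.9%, 14.9%, 12.7% and 15.2% higher. The same shares apply to the counts of the lists that follow. The median log2FC of the 24 genes was -0.57, -0.31, 0.04, 0.53 and 1.42 at these times. Slc2a5, a fructose transporter, followed the deep course and fell by 2.64 and 3.26 at 6 and 12 h (4.04 at 12 h without SE 12 h replicate 1) and by 4.40 and 2.40 at 24 and 36 h. Upk1b, a tetraspanin with at most 9 counts in any SE library, was lower at all 5 times, by 2.30 at 6 h. Its fall at 72 h was 2.91, and 2.17 without Ctr 72 h replicate 2, and its call at 36 h was lost without Ctr 36 h replicate 1 or 2 or SE 36 h replicate 2 or 3. Crybb1 fell by 1.18 and 2.66 at 6 and 12 h and Gpr165 by 1.48 at 12 h. Cd33, a sialic acid-binding lectin, fell by 1.59 and 2.02 at 6 and 12 h and rose by 2.90 at 72 h, which was 2.23 without Ctr 72 h replicate 2 and 3.90 without replicate 1. In contrast, the UDP receptor P2ry6 was higher at all 5 times, by 1.23 at 6 h, 1.56 at 12 h and 2.99 at 24 h. At 72 h its log2FC was 3.65, with 0 counts in Ctr 72 h replicate 2, and 2.38 without that library. The count lower at 36 h depended on SE 36 h replicate 2, without which it was 1.

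Pan-myeloid genes did not share the early fall. Of 18, 8 were higher and 1 lower at 6 h, and 11, 15, 16 and 18 were higher and 0 lower at the later times, with a median log2FC of 0.50, 1.1, 1.63, 2.08 and 2.81. Cd14, a co-receptor for bacterial lipopolysaccharide, rose by 6.06 at 6 h and Cd68, a lysosomal protein of phagocytes, by 2.62, whereas Unc93b1, which carries Toll-like receptors to endosomes, fell by 0.74. C1qa, of the complement component C1q, had a log2FC of 0.17 at 6 h and rose by 3.33 at 72 h. The reactive microglia list, which was drawn up with earlier results of these libraries known, had 18, 17, 17, 18 and 18 of 20 genes higher at the 5 times, in order. Ccl4, a chemokine, stood at 34.7 ± 18.2 CPM at 6 h and 3.53 ± 0.685 CPM at 72 h, and Cst7, a cystatin of reactive microglia, at 0.731 ± 0.152 and 20.1 ± 5.73 CPM, while the control libraries held at most 3 counts of Ccl4 and 2 of Cst7. Fabp5 was the 1 gene of this list that was lower, at 12 h (log2FC -0.67), a call lost without Ctr 12 h replicate 1 or SE 12 h replicate 2 or 3.

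**Figure D4:**
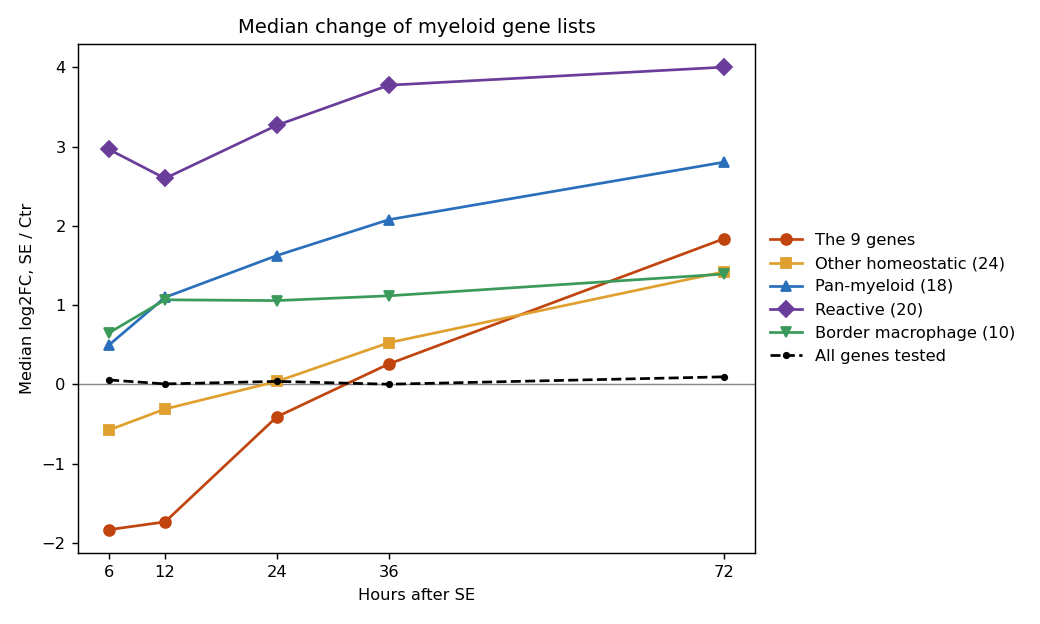
Median log2FC of SE against control (y axis) by hours after SE (x axis) for the 9 genes, 4 other myeloid lists (number of genes tested in parentheses) and all genes tested (dashed). The 9 genes start lowest at -1.83 and cross 0 between 24 and 36 h, while the pan-myeloid and reactive lists lie above 0 at every time.

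Genes of dividing cells were highest at 72 h. Of 14 cell cycle genes, among them Mki67 and Top2a, 8, 1, 12, 14 and 14 were higher at the 5 times, in order. Their summed level was 31.8 ± 5.56 CPM in Ctr 12 h, 166 ± 54.1 at 36 h and 383 ± 43.8 at 72 h. Without the 6 libraries with sensory ganglion transcripts, 2 in place of 8 were higher at 6 h. Which cells carried these transcripts was not tested.

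The genes for ligands and partners of these receptors moved unevenly. Csf1, the first ligand of CSF1R, was higher at all 5 times, by 1.51 at 6 h and 1.94 at 72 h. Il34, its second ligand, which neurons make, was lower at 6, 12, 24 and 36 h (log2FC -0.80, -1.18, -0.71 and -0.89) and not a DEG at 72 h (-0.37). It fell short of the fold at 6 h without SE 6 h replicate 2 and at 24 h without SE 24 h replicate 1 or Ctr 72 h replicate 2. Cx3cl1, which encodes fractalkine, the ligand of CX3CR1, had log2FC between -0.38 and 0.48 and was at no time a DEG. Tgfb1, a cytokine that maintains the homeostatic state, was higher at all 5 times (1.12 at 6 h, 2.85 at 36 h). Its receptor gene Tgfbr1 rose at 72 h (0.78). Among the enzymes that shape extracellular nucleotides, Entpd1, which degrades ATP, was higher at 6 h (0.89). Calls of Entpd1 at 72 h and of Nt5e, which forms adenosine, at 12, 24 and 36 h were each lost with any of several single libraries left out. In all, 13 genes of ligands and partners were tested, with 5, 6, 7, 7 and 7 higher and 1, 1, 1, 1 and 0 lower at the 5 times.

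A list of 11 genes tested held other purine receptors and their relatives, among them Gpr183, an oxysterol receptor. P2ry14, of the same gene family as P2ry12 and P2ry13, was lower as they were at 6 h (log2FC -1.46) and 24 h (-1.30, and -2.01 without SE 24 h replicate 2), and no other was lower. P2rx7, an ATP-gated channel, was higher at 6 h (0.74, short of the fold without Ctr 72 h replicate 3), 36 h (0.92) and 72 h (1.44). In all, 5, 4, 4, 5 and 6 of the 11, P2ry6 among them, were higher at the 5 times.

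Of 12 transcription factors of microglia, 5 were higher at 6 h, when 15.8% of all genes were, and 7 at each later time, against 13.9%, 14.9%, 12.7% and 15.2% of all genes. Spi1, which encodes PU.1, rose by 0.97 at 6 h, by 1.63, 2.23 and 2.01 at the next 3 times and by 3.78 at 72 h, and Irf8 was higher at all 5 times too, by 1.35 at 6 h. Runx1 and Cebpa were also higher throughout, but Runx1 was not called at 6 h without SE 6 h replicate 3, nor Cebpa at 36 h without Ctr 36 h replicate 1 or SE 36 h replicate 1. Mef2a was lower at 36 h (-0.79), and Maf at 6 h (-0.77), which fell short of the fold without SE 6 h replicate 2. Sall1, a factor of resting microglia, had a log2FC of -0.25 at 6 h and -0.29 at 12 h, neither a DEG, and was higher at 24 h (0.84) and 72 h (2.00). Mef2a and Mef2c are also made by neurons.

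Markers of other myeloid cells were examined because several of the 9 genes, Csf1r, Cx3cr1, Selplg and Aif1 among them, are also made outside microglia. Of 10 border macrophage genes, 1, 3, 4, 4 and 4 were higher at the 5 times, against 15.8%, 13.9%, 14.9%, 12.7% and 15.2% of all genes, and 0 lower. Their sum rose from 36.4 ± 11.4 CPM in Ctr 12 h, 32.3 ± 5.6 in Ctr 36 h and 42.8 ± 20.8 in Ctr 72 h to 254 ± 43.7 at 72 h, and most of it came from Stab1, with a mean of 76.1 CPM over all libraries. Stab1 itself rose by 1.16 at 12 h and by 3.01 at 72 h. Lyve1 rose by 2.54 at 12 h, 1.77 at 24 h and 2.93 at 36 h. At 72 h the log2FC was -0.61 for Lyve1 and 0.54 for Pf4, neither a DEG. From 36 to 72 h after SE, Lyve1 was a lower DEG, with a log2FC of -3.06. Siglec1, a sialoadhesin, held 9.85 ± 5.5 CPM at 36 h and 22.4 ± 2.49 at 72 h. Its level was 0.338 ± 0.325 CPM in Ctr 36 h and 2.24 ± 3.39 in Ctr 72 h. Ms4a7 held 3.14 ± 0.756 CPM at 72 h against 0.363 ± 0.335 in Ctr 72 h. Calls of Lyve1 at 6 h, Siglec1 at 12 h, Pf4 at 24 and 36 h and Cbr2 at 72 h were lost with 1 library left out. Mrc1, a defining marker, was called at no time (log2FC 0.63 to 0.95), and Cd163 neither. Of 17 infiltrating leukocyte genes, 8 were matched to the table and 6 were tested. Their sum was 32.6 ± 12.7 CPM in Ctr 12 h, 46.3 ± 1.67 in Ctr 36 h and 35.8 ± 13.3 in Ctr 72 h, and 12.5 to 38.2 CPM in the means after SE, and 2, 1, 0, 1 and 2 of the 6 were higher and 1 lower at each time. Most of the control sums was Itga4, with 31.9 ± 13.2 CPM in Ctr 12 h, 45 ± 1.29 in Ctr 36 h and 26.5 ± 6.45 in Ctr 72 h. A sum near or below control therefore does not describe the other genes of the list. The highest of the SE means of the sum was that of SE 72 h, close to the sum in Ctr 72 h. In SE 72 h, Chil3 (11.7 ± 16.1 CPM), S100a9 (4.95 ± 4.37), Ccr2 (3.21 ± 3.35) and S100a8 (2.52 ± 2.4) varied widely between libraries and Itga4 held 12.7 ± 1.8 CPM. In Ctr 72 h, Chil3 held 0.58 ± 0.705 CPM, S100a9 1.99 ± 2.05, Ccr2 1.39 ± 2.34 and S100a8 2.57 ± 2.74. Itga4, the most abundant gene of the list over all libraries, was lower at all 5 times (log2FC -1.76 at 6 h), a call lost at 72 h without Ctr 72 h replicate 1 or SE 72 h replicate 2 or 3. Ccr2, a receptor of monocytes, was higher at 6, 36 and 72 h with a mean of 0.804 CPM over all libraries and 0 counts in 6 of them. Chil3 had 0 counts in 9 libraries and S100a8 in 6, and Chil3 was a DEG at 72 h and S100a8 at 12 h. Each of these calls of Ccr2, Chil3 and S100a8 was lost with 1 library left out. The part of these cells in the course of the 9 genes was not tested.

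Neuron genes were measured in the same libraries. The 12 genes of the list summed to 14970, 15610 and 13390 CPM in the Ctr 12, 36 and 72 h means and to 12360, 9490, 9350, 9032 and 8860 CPM in the means after SE, and 0, 3, 2, 4 and 4 of them were lower DEGs. Astrocyte genes, led by Gfap, summed to 4184 to 4691 CPM in the control means and to 12950 CPM at 72 h. Of the 8, 2, 3, 3, 4 and 5 were higher at the 5 times, Gfap at each, and 0, 2, 4, 3 and 0 were lower, such as the glutamate transporter Slc1a2 at 24 and 36 h (log2FC -1.09 and -1.30). Of 10 vascular genes, 5, 5, 6, 4 and 3 were higher and 2, 2, 1, 1 and 0 lower, with a sum of 474 to 539 CPM in the control means and 567 to 693 CPM in those after SE. The endothelial gene Pecam1 rose by 1.48 at 6 h. Of 8 oligodendrocyte genes, 4, 0, 3, 0 and 2 were higher and 0, 1, 0, 1 and 0 lower, with sums of 3842 to 3999 CPM in the control means and 2901 to 6237 CPM after SE, the highest at 6 h. Of 5 blood cell genes 3 were lower at 72 h, and of 3 choroid plexus genes 1 was higher and 1 lower at 12 h, with none called at the other times. Since CPM are shares of a library, a change in the RNA of these cells moves the CPM of all others, and its part in the course of the 9 genes was not tested.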

How the data were processed

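Counts per gene of 24 CA1 libraries were analysed. Per the labels and the methods of the study, the authors trimmed reads with Trim Galore 0.6.6, aligned them with STAR 2.7.8a to GRCm39, counted them per GENCODE gene with HTSeq 0.13.5, ignoring strand, and deposited the counts as they were, not normalized. Symbols and positions were taken from GENCODE M39 on GRCm39, a later release than that of the authors, with 18552 genes matched and 95 not. Counts were scaled with TMM, filtered with filterByExpr and fitted in edgeR 4.0.16 (R 4.3.3) with 8 group terms plus 1 RUVr factor, a correction for unwanted variation, over all 24 libraries. The quasi-likelihood test was used, with Benjamini-Hochberg adjustment over 18153 genes, and s.e. was derived from its F statistic. DESeq2 1.42.0 and limma 3.58.1 were used as alternatives, beside other scalings, filters, thresholds, factors and the omission of each library. On simulated data for SE 12 h against Ctr 12 h, run on 17720 genes, 142 of 200 genes changed by a log2FC of 1.5 were recovered (71%) and 7 others called. The simulated data held no other difference between groups and no factor of unwanted variation, so these counts give no error rate for the real libraries. No library was a copy of another. All 9 genes are named, with genes of the lists where the text is about them and the 5 genes most like P2ry12 and Aif1. Members, lists and rules were chosen with earlier results of these data known. The list genes Fcrls, Cd209f, Lrrc33, Kcnj13 and 9 leukocyte genes of the lists were not matched to the table. A few list genes are not reported here by name.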

Additional observations from a re-analysis of the deposited data

Results flagged for a closer look

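Whether the effect of SE differed between times was tested for each gene as an interaction term in the edgeR fit, and 25 such differences passed an adjusted p of 0.05 with an absolute difference of log2FC of 0.66. They share the SE and control libraries of the times compared.

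Between 12 and 36 h, the log2FC was higher at 36 h by 1.57 for P2ry12, 2.46 for P2ry13, 2.5 for Tmem119, 2.56 for Selplg, 0.97 for Cx3cr1, 0.78 for Csf1r, 2.39 for Gpr34 and 1.79 for Aif1. That of Siglech changed by -1.51. Among all genes, 3.38% passed. Without Ctr 12 h replicate 2, 4 of the 9 genes passed, and without the RUVr factor 5 did.

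Between 12 and 72 h, the log2FC was higher at 72 h by 4.38 for P2ry12, 4.06 for P2ry13, 3.95 for Tmem119, 2.08 for Siglech, 4.94 for Selplg, 2.16 for Cx3cr1, 2.37 for Csf1r, 4.03 for Gpr34 and 3.17 for Aif1, where 18.6% of all genes passed. All 9 passed with any single library left out.

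Between 36 and 72 h, the log2FC was higher at 72 h by 2.81 for P2ry12, 1.59 for P2ry13, 3.6 for Siglech, 2.38 for Selplg, 1.2 for Cx3cr1, 1.58 for Csf1r and 1.64 for Gpr34, and 4.81% of all genes passed. The difference was 1.46 for Tmem119 (s.e. 0.6, adjusted p = 0.156) and 1.38 for Aif1 (s.e. 0.47, adjusted p = 0.0887), which did not pass. Without Ctr 72 h replicate 2, the library with 1729 CPM of sensory ganglion transcripts and the lowest levels of P2ry13, Tmem119, Gpr34 and Cx3cr1 among controls, 4 genes passed. Without the RUVr factor 4 passed, and with the label range in its place 4 did.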

How the results depend on the processing

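The counts of genes lower at the 5 times stayed within 1.5 times of 9, 6, 4, 3 and 0, in order, in all alternatives run. Without the RUVr factor, 5 genes differed between the SE effects at 36 and 12 h (9 in the fit reported) and 4 between 72 and 36 h (7). DESeq2 called 1 gene between 24 and 36 h and limma-voom 2 (0), and limma-voom called 1 between 6 and 12 h (2). A fit of the compared groups only called 0 between 6 and 12 h and 1 between 12 and 24 h (6). With the range of label numbers as a factor, 1 gene was higher at 36 h (2), 4 at 72 h (8), 0 differed between 6 and 12 h and 4 between the effects at 72 and 36 h. Without the 6 libraries with sensory ganglion transcripts, chosen after seeing the data, these were 1 at 36 h, 0 between 6 and 12 h and 4 between the effects at 72 and 36 h, with 1 SE 72 h library that is assumed to vary like the others. At a log2FC of 1, 0 were higher at 36 h. The replicate block called 1 gene between 6 and 12 h and moved no other of these counts beyond 1.5 times. Same-numbered SE and Ctr libraries deviated together with r of 0.082, 0.181 and -0.002 at 12 h, 0.157, 0.031 and 0.172 at 36 h and -0.201, 0.063 and 0.162 at 72 h, so the numbers were not taken as pairing.

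With 1 library left out, counts ranged from 7 to 9 lower at 6 h, 6 to 7 lower at 12 h, 0 to 1 higher at 24 h, 1 to 3 higher at 36 h and 7 to 8 higher at 72 h. Between SE times they ranged from 0 to 2 (6 to 12 h), 3 to 7 (12 to 24 h), 0 to 2 (24 to 36 h) and 6 to 9 (36 to 72 h), and for the differences of effects from 4 to 9 (36 and 12 h) and 4 to 8 (72 and 36 h). The lowest values came without SE 24 h replicate 1 for 12 to 24 h, without Ctr 12 h replicate 2 for the effects at 36 and 12 h and without Ctr 72 h replicate 2 for those at 72 and 36 h.

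The direction changed for 2 values. Csf1r at 24 h had a log2FC of -0.068 with the label range. P2ry13 at 36 h, at -0.0041 in the fit reported, had 0.0142 with DESeq2, 0.0137 with DESeq2 size factors, 0.12 with library size only, 0.0565 with at least 10 counts in every library, 0.0076 in the compared groups only, 0.0337 without the 6 libraries and -0.17 to 0.17 with 1 library left out. In all these the cause was not tested. Library size only moved the median of all genes at 36 h from 0.003 to 0.127.

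The DEGs among all genes numbered 3994 at 6 h (2190 with at least 10 counts in every library, 2477 with the label range, 2574 at the other threshold), 4580 at 12 h (2910 at the other threshold), 4377 at 24 h (2497, 2627 and 2911 in the same order), 3926 at 36 h (2492 with at least 10 counts) and 3530 at 72 h (1892 with at least 10 counts, 1595 with the label range, 2269 without the 6 libraries). Over the alternatives they ranged from 75 to 456 between 6 and 12 h (244), 118 to 993 between 12 and 24 h (578), 14 to 292 between 24 and 36 h (96), 399 to 1241 between 36 and 72 h (750) and 1392 to 4347 between 12 and 72 h (2760). For the differences of effects they ranged from 219 to 1247 (613) for 36 and 12 h, down to 1626 (3383) for 72 and 12 h and down to 136 (873) for 72 and 36 h. Depth limits the low values of all genes but Csf1r and Cx3cr1, since the other 7 had libraries under 100 counts, down to 29 for P2ry12 and P2ry13 at 6 h, 33 for Selplg at 12 h, 12 for Tmem119 at 6 h and 17 for Siglech at 24 h.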
